A study of Sus scrofa with 4 samples.

Results

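The miRNA cargo of exosomes in umbilical vein plasma was set against that of umbilical artery plasma in newborn piglets with intrauterine growth restriction (IUGR). The comparison rests on 124 miRNA rows of the 359 that remained in the deposited table of these libraries, and 664 rows were listed over the whole series. Rows named as predicted candidates (PC) and rows named miR-3168, likely oligonucleotides of the library kit, were left out. Rows were kept when the IUGR vein library and the IUGR artery library together held at least 10 reads. The choice used no ratio between the vessels and none of the authors' deposited fold or p columns.

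The piglets were Yorkshire, and the series set IUGR piglets beside normal littermates. Cord blood was drawn at birth into EDTA from either vessel, plasma was filtered and ultracentrifuged, and the pellet was taken as exosomes. Each of the 4 libraries came from a pool of 3 piglets of 1 condition and 1 vessel, was made with a TruSeq small RNA kit and was sequenced as single reads of 36 bases. IUGR was common to both libraries compared here, and neither group was described as carrying an allele or a treatment. The labels give the vessel and a number, and the letters I and N in the column names of the tables were taken as IUGR and normal. Whether the same 3 piglets gave both vessels is not stated. With 1 pooled library per vessel there was no replicate, so no test across samples was possible, and every ratio below compares a pair of libraries.

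MicroRNAs are short RNAs that guide Argonaute proteins to messenger RNAs, mainly through bases 2 to 8, the seed, and lower the output of their targets. Cells release some of them in exosomes, small vesicles that travel in plasma, and many miRNAs are so concentrated in 1 cell type that they serve as its markers in blood. The umbilical vein brings oxygen and nutrients from the placenta and passes the fetal liver on its way, while the umbilical arteries bring fetal blood back to the placenta. In IUGR the fetus fails to reach its growth potential, often with a poorly perfused placenta, and blood flow is redistributed between fetal organs.

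The libraries compared here held 16218 reads (vein) and 20144 reads (artery), of which the rows left out took 55.8% and 38.8%. After that 7169 and 12325 reads remained, and a level below is the number of reads per 10000 of these remaining reads. The IUGR artery library stood apart from the other 3 of the series. Erythroid miRNAs took 12.8% of its remaining reads against 57.1 to 63.9% in the other 3, and liver miRNAs took 35.2% against 1.90 to 4.76%. Neither library can be left out, since each is the whole of its arm, and the part of this difference in the results below was not tested. In plasma exosomes, fewer vesicles from a cell type and less of a miRNA in each vesicle cannot be told apart. No marker for the vessel itself was at hand, so the vessel labels were not checked.

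The sequences that carry the comparison are shown as the deposited tables give them, from 5′ to 3′ with T in place of U and with the seed in capitals. Names are given without the species prefix and end notes of the tables. The first set holds miRNAs higher in IUGR vein. They are red-cell miRNAs, miRNAs that are GC-rich or made outside the usual processing route, miR-191 of platelets and other blood cells, and miR-125a, listed here with endothelial miRNAs.
miR-451: aAACCGTTaccattactgagt
miR-486: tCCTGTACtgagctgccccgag
miR-92a: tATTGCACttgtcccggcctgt
miR-25: cATTGCACttgtctcggtctga
miR-191: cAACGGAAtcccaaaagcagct
miR-423-3p: aGCTCGGTctgaggcccctcagt
miR-423-5p: tGAGGGGCagagagcgagacttt
miR-320: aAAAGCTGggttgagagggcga
miR-125a: tCCCTGAGaccctttaacctgt

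The next set holds miRNAs higher in IUGR artery. miR-30e-5p and miR-30c-5p share the seed GTAAACA, miR-29b and miR-29c share AGCACCA, and miR-221-3p and miR-222 share GCTACAT.
miR-122: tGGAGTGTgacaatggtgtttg
miR-122-3p: aACGCCATtatcacactaaat
miR-192: aTGACCTAtgaattgacagcc
miR-194a: tGTAACAGcaactccatgtgga
miR-30e-5p: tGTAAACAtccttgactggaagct
miR-30c-5p: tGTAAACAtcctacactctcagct
miR-29b: tAGCACCAtttgaaatcagtgtt
miR-29c: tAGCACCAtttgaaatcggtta
miR-221-3p: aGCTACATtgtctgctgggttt
miR-222: aGCTACATctggctactgggtct
let-7a: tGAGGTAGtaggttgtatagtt

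Over all 124 rows, 48 (38.7%) were at least 2-fold higher in IUGR vein, 50 (40.3%) were at least 2-fold higher in IUGR artery and 26 lay within 2-fold. The median log2 ratio of vein over artery was -0.39, with quartiles of -2.31 and 2.10. So 98 of 124 rows were past 2-fold, and 34 and 36 were past 4-fold in vein and artery. The interval in parentheses after a ratio is a 95% Clopper-Pearson interval of the vein share of the rounded reads of a row. It covers counting error only, since amplified reads without molecular identifiers are not independent molecules. With the interval also on 1 side of 0, 44 rows (35.5%) were higher in vein and 48 (38.7%) in artery. Half-widths of the intervals had a median of 1.15 on the log2 scale. Where a library held under 1 read, the ratio was set against 3 counts, worth a level of 4.18 in vein and 2.43 in artery, and is a bound. There were 11 such rows in vein and 5 in artery, and 55 rows had at least 10 reads in each library.

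At the threshold of 10 reads, miR-483-3p (8 vein reads and 2 artery reads), miR-130b (4 and 6), miR-1 (6 and 4) and both rows of miR-1271 (7.5 and 2.5) were just inside. miR-34a (3 and 6), miR-335 (7 and 2), miR-455-3p (0 and 9) and miR-218b (0.5 and 9) were just outside. The 235 rows under the threshold held 263.8 vein reads and 249.5 artery reads, while the 124 rows held 96.3% and 98.0% of the remaining reads. The 124 rows hold 117 distinct sequences, and 14 rows share a sequence with another row and carry the same reads in equal parts. For counts by list, the most abundant row of each mature miRNA stood for it, which left 115 rows, of which 42 (36.5%) were at least 2-fold higher in vein and 47 (40.9%) in artery. These shares are the background for the count of every list below.

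**Figure D1:**
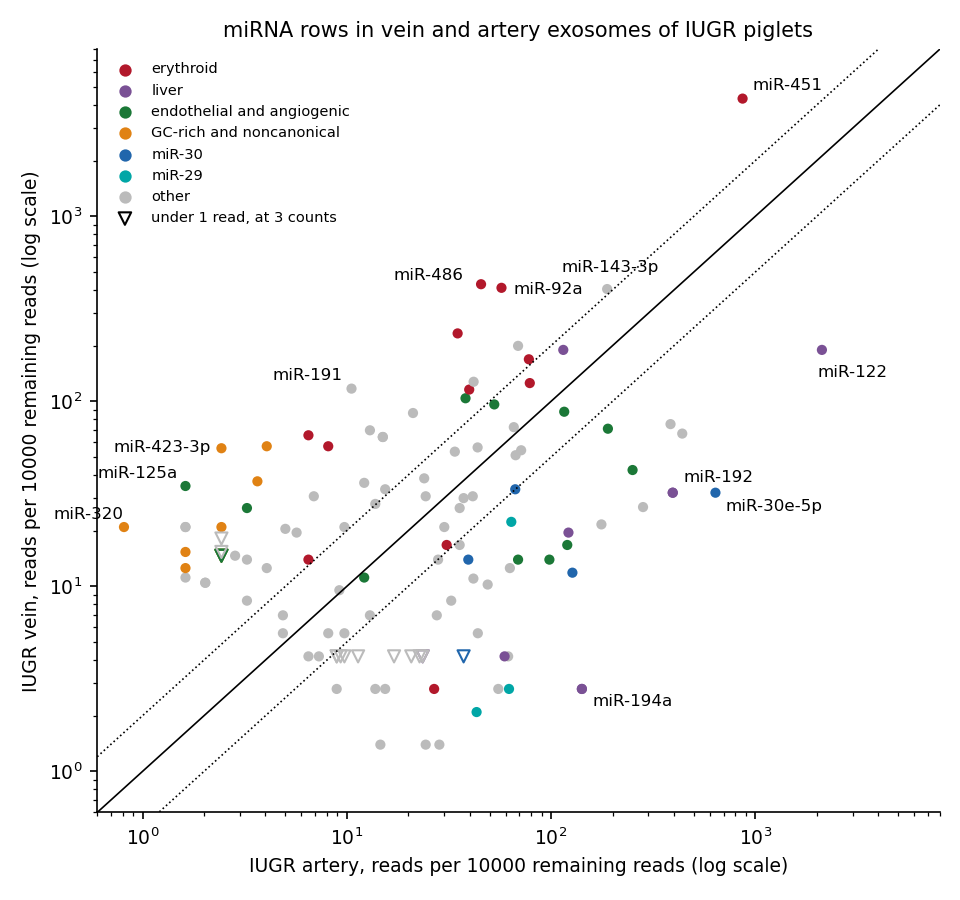
Level of each of the 124 rows in the IUGR artery library (x axis) and the IUGR vein library (y axis), in reads per 10000 remaining reads on log scales, with 1 pooled library per vessel. Colours mark miRNA lists, the solid line is equality, dotted lines mark 2-fold, and open triangles stand at 3 counts for a library under 1 read. miR-451 (4329 in vein and 867 in artery) and miR-122 (190 and 2119) lie far from the line on opposite sides.

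Red-cell miRNAs were higher in IUGR vein. Of the 12 measured members of the erythroid list, 9 were at least 2-fold higher in vein and 1 was higher in artery, with a median log2 ratio of 1.93 against -0.40 over all 115 mature miRNAs. They took 60.1% of the remaining vein reads (95% exact binomial interval 58.9 to 61.2%) and 12.8% of the artery reads (12.3 to 13.4%).

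miR-451, the leading miRNA of the red cell, is cut from its hairpin by Argonaute 2 without Dicer. It had 3103 reads in vein and 1068 in artery, a level of 4329 against 867 and a log2 ratio of 2.32 (2.22 to 2.42). It was the most abundant named miRNA of the vein library, with 43.3% of its remaining reads. miR-144, which stands beside miR-451 in the genome and is processed with it, had 121 and 96 reads and a log2 ratio of 1.12 (0.72 to 1.52). The intervals of these neighbours did not overlap, but they treat amplified reads as independent, and whether the ratios differ was not tested.

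miR-486, which lies in the ankyrin gene and is found in red cells and muscle, had 308 vein reads and 56 artery reads, a log2 ratio of 3.24 (2.83 to 3.68). miR-92a of the 17-92 cluster had 294.5 and 70.5 reads, with a log2 ratio of 2.84 (2.46 to 3.23). miR-25, which shares its seed ATTGCAC, had 167 and 43 reads, with a log2 ratio of 2.74 (2.25 to 3.26). With miR-451 and miR-143-3p, these 3 were the 5 most abundant miRNAs of the vein library, and of the 5 only miR-143-3p is outside the erythroid list.

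miR-15a had 83 vein reads and 49 artery reads, a log2 ratio of 1.54 (1.02 to 2.08), and miR-15b, which shares its seed, 41 and 10 reads, at 2.82 (1.80 to 3.98). miR-16, which shares that seed and is encoded beside each of them, had 90 and 97 reads, at 0.67 (0.24 to 1.10), within 2-fold. miR-363 went the other way without reaching 2-fold, with 12 vein reads and 38 artery reads, at -0.88 (-1.95 to 0.09). The member higher in artery was a row under the platypus name miR-16c-5p, with 2 vein reads and 33 artery reads and a log2 ratio of -3.26 (-6.37 to -1.30).

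miRNAs of the 17-92 cluster and its paralogs, which drive progenitor cells to divide and share several members with the erythroid list, were higher in vein in 8 of 12 members and higher in artery in 1. Their median log2 ratio was 2.07. miR-93, in the same host gene as miR-25, had 47 and 8 reads at 3.34 (2.24 to 4.63), and miR-106b, from the same transcript, had 15 and 2 reads at 3.69 (1.58 to 6.86). miR-17-5p had 46 vein reads and 18.5 artery reads at 2.10 (1.26 to 2.91), in equal parts with the row of miR-106a that holds the same sequence. miR-20a had 62 and 26 reads at 2.04 (1.35 to 2.76). miR-19a and miR-19b, whose seed differs, lay within 2-fold at 0.33 (-0.53 to 1.18) and -0.43 (-1.22 to 0.32).

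miR-20b stood against its family. It had no read in vein and 28 in artery, so that against 3 counts it was at least 5.43-fold higher in artery. The sequence of miR-20b differs from that of miR-17-5p by T10C, with positions counted from 1 at the 5′ end and the base of miR-17-5p first, and both share the seed AAAGTGC.
miR-17-5p: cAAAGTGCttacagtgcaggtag
miR-20a: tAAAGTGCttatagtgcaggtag
miR-20b: cAAAGTGCtcacagtgcaggtag
All other rows with this seed were at least 2-fold higher in vein.

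Liver miRNAs showed the opposite pattern. Of 8 measured rows of the liver list, which hold 6 distinct sequences, 7 were at least 2-fold higher in IUGR artery and none in vein, with a median log2 ratio of -3.62. They took 35.2% of the remaining artery reads (34.3 to 36.0%) and 4.76% of the vein reads (4.28 to 5.27%).

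miR-122 makes up most of the miRNA of hepatocytes and acts in their lipid metabolism. It had 136 reads in vein and 2612 in artery, a level of 190 against 2119 and a log2 ratio of -3.48 (-3.74 to -3.23), and it led the artery library with 21.2% of the remaining reads. miR-122-3p, from the other arm of the same hairpin, had 3 vein reads and 73 artery reads at -3.82 (-6.13 to -2.22). The intervals of the arms overlapped.

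miR-192, of liver and gut, had 23 vein reads and 486 artery reads, with a log2 ratio of -3.62 (-4.29 to -3.02). The row named miR-215 carries the same sequence and an equal part of its reads, so the sequence as a whole holds the reads of both rows. miR-194a and miR-194b-5p also share 1 sequence, each with 2 vein reads and 174.5 artery reads, at -5.67 (-8.73 to -3.79). This was the lowest ratio of all 124 rows. miR-192 and miR-194a are neighbours in the pig genome and are transcribed together. miR-101, listed here for its abundance in liver although many tissues hold it, had 14 and 150 reads at -2.64 (-3.55 to -1.85). The exception was miR-148a-3p, also abundant in liver and in other tissues, at 0.72 and so within 2-fold.

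**Figure D2:**
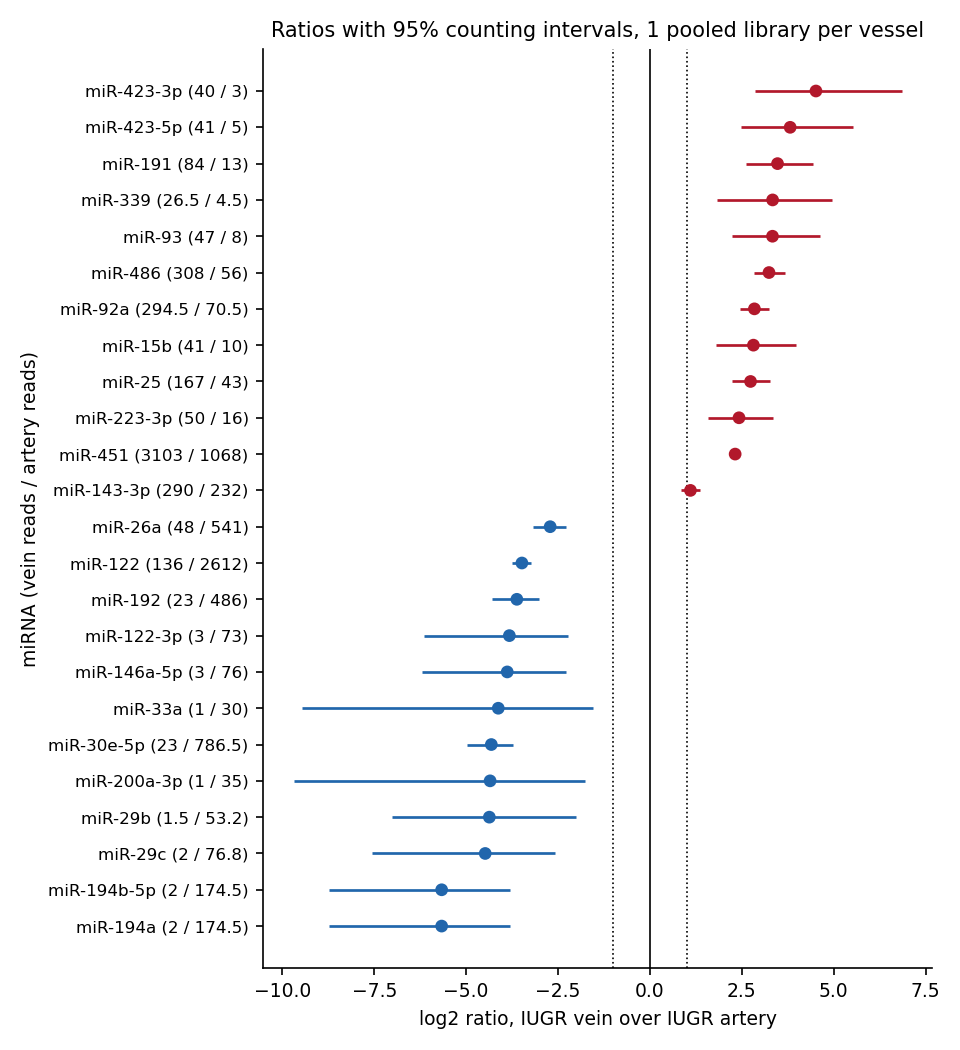
log2 ratio of IUGR vein over IUGR artery with its 95% counting interval for the 10 highest and 10 lowest mature miRNAs with at least 30 reads and for the 5 most abundant of each library, with 1 pooled library per vessel. Vein and artery reads stand in parentheses, red is higher in vein and blue higher in artery, and dotted lines mark 2-fold. The interval of miR-143-3p (0.85 to 1.36) reaches below 2-fold, and those of miR-33a and miR-200a-3p, with 1 vein read each, are the widest.

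The miR-30 family, which acts in epithelial and cardiovascular cells, was higher in artery in 4 of 5 members and in vein in none. Their median log2 ratio of -3.16 is that of miR-30a-3p, a bound, and became -1.50 with at least 10 reads in each library. miR-30e-5p had 23 vein reads and 786.5 artery reads, a level of 32.1 against 638 and a log2 ratio of -4.31 (-4.98 to -3.72). Of single rows, only those of miR-122 and miR-451 held more reads in the artery library. miR-30c-5p had 8.5 and 156.8 reads at -3.42 (-4.50 to -2.38). miR-30a-3p had no vein read and 46 artery reads, at least 8.92-fold higher in artery.

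The other 2 members were less far apart. miR-30d had 10 and 48.5 reads at -1.50 (-2.66 to -0.51), and miR-30b-5p had 24 and 82.3 reads at -0.997 (-1.71 to -0.32), just within 2-fold. miR-30e and miR-30c are neighbours in the genome, as are miR-30d and miR-30b, so the lower ratios lay in 1 pair and the ratios nearer to 0 in the other. The interval of miR-30e-5p overlapped neither that of miR-30d nor that of miR-30b-5p, while that of miR-30c-5p overlapped that of miR-30d.

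The 3 members of the miR-29 family, repressors of collagen and other matrix genes, were each at least 2-fold higher in artery, with a median of -4.37. That median rests on rows with few vein reads. miR-29b and miR-29c passed the threshold of 10 reads through the artery library alone, so no direction is read from the family as a group. With at least 10 reads in each library only miR-29a was left, at -1.52. miR-29c had 2 vein reads and 76.8 artery reads at -4.48 (-7.56 to -2.58), and miR-29b had 1.5 and 53.2 reads at -4.37 (-7.03 to -2.02). miR-29a had 16 and 78.8 reads at -1.52 (-2.40 to -0.73). In artery these levels were alike, from 43.2 to 63.9, whereas in vein miR-29a stood at 22.3 against 2.79 and 2.09 for the others.

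The let-7 family, which holds back growth genes and marks differentiated cells, was split. Of its 7 members 3 were at least 2-fold higher in artery, near the 40.9% of all 115 mature miRNAs, and none in vein, beside 36.5%. The median of -0.52 was near the -0.40 of all miRNAs. let-7a had 19.2 vein reads and 347.7 artery reads at -3.39 (-4.16 to -2.75), miR-98 had 4 and 54 at -2.97 (-4.90 to -1.53), and let-7f had 7.9 and 51.4 at -1.92 (-3.18 to -0.80). let-7c had 38.3 vein reads and 41.7 artery reads at 0.66 (-0.03 to 1.31), although it differs from let-7a by G19A alone, with the base of let-7c first. let-7b-5p, let-7g and let-7i also lay within 2-fold, between -0.52 and 0.37. Reads of such close relatives can be split between rows, as the fractions show, so the values of single let-7 rows are uncertain.

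A second row of let-7a begins 1 base earlier than the main form, which moves its seed from GAGGTAG to TGAGGTA.
let-7a: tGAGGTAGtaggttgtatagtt
let-7a-5p, earlier start: gTGAGGTAgtaggttgtatagt
It had 2 vein reads and 68 artery reads, beside 19.2 and 347.7 for the main form, so both forms were higher in artery.

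In the list of endothelial and angiogenic miRNAs, 4 of 12 members were at least 2-fold higher in vein and 5 in artery, with a median of -0.26. Over all 115 mature miRNAs the shares were 36.5% and 40.9% and the median was -0.40. The list as a whole was thus near all miRNAs, and the values below describe single members. The 5 include the row named miR-100, whose first 21 bases are those of the miR-99a row. Among those higher in artery, miR-221-3p, which represses the receptor KIT, had 12 and 148 reads at -2.84 (-3.83 to -1.99). Its neighbour and seed partner miR-222 had 10 and 121 reads at -2.82 (-3.91 to -1.89). miR-130a had 10 and 85 reads at -2.31 (-3.42 to -1.36).

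On the vein side of the list, miR-125a had 25 vein reads and 2 artery reads at 4.43 (2.42 to 7.55), while miR-125b, with the same seed, had 63 and 143 reads and lay within 2-fold at -0.40. miR-10b, a HOX cluster miRNA, had 19 and 4 reads at 3.03 (1.44 to 5.04), and miR-10a-5p, which differs from it by T12A with the base of miR-10a-5p first, was within 2-fold at -0.13. miR-424-5p had 10.5 vein reads and 0.5 in artery, at least 6.02-fold higher in vein. Members of a shared seed thus lay on different sides of the 2-fold line in this list.

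miR-126, the main miRNA of endothelium, differed between its arms. miR-126-3p had 51 vein reads and 234 artery reads at -1.42 (-1.88 to -0.97). miR-126-5p had 69 and 65 reads at 0.87 (0.36 to 1.38), within 2-fold. The intervals do not overlap, and the more abundant arm was the 3p arm in artery and the 5p arm in vein. The other hairpins with both arms measured, miR-122, miR-140, miR-142, miR-199a, miR-210, miR-22 and miR-423, had arms with ratios of 1 sign each. Among them miR-199a-5p, with 9 and 77.5 reads at -2.32 (-3.52 to -1.34), lay apart from miR-199a-3p at -0.39 (-0.98 to 0.19).

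Of 10 platelet and myeloid miRNAs, 6 were at least 2-fold higher in vein and 2 in artery, beside 36.5% and 40.9% of all 115 mature miRNAs. Their median was 1.33, and they took 6.17% of the remaining vein reads against 2.73% of the artery reads. Whether the list differs from all miRNAs was not tested. miR-191, abundant in platelets and other blood cells, had 84 and 13 reads at 3.47 (2.62 to 4.44). miR-223-3p, a regulator of granulocytes, had 50 and 16 reads at 2.43 (1.59 to 3.34). miR-21, which is found in many cell types and rises in injured tissue, had 143 and 85 reads at 1.53 (1.14 to 1.94).

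miR-142, found in most kinds of blood cell, did not follow them, since miR-142-3p had 6 and 40 reads at -1.96 (-3.48 to -0.71) and miR-142-5p was within 2-fold at -0.39. The other member higher in artery was miR-338, with no vein read and 29 artery reads. The clusters of miR-23, miR-24 and miR-27, part of which are platelet miRNAs, were higher in vein in 3 of 5 members, with a median of 1.12. Of all mature miRNAs 36.5% were higher in vein, and the difference from these 5 members was not tested. miR-27b-3p led the clusters with 91.5 and 51.5 reads at 1.61 (1.10 to 2.12), and miR-24-3p had 22 and 8.5 reads at 2.15 (0.90 to 3.37).

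Only 3 lymphoid and inflammatory members were measured. miR-150, of mature lymphocytes, had 14 and 7 reads at 1.78 (0.38 to 3.33). miR-146a-5p, a brake on NF-kB signalling, had 3 and 76 reads at -3.88 (-6.19 to -2.28). miR-181a, of lymphocyte development, had 10 and 34.5 reads at -1.005 (-2.20 to 0.02). The members thus pointed in both directions, and the lymphocyte marker miR-342 was at 3 vein reads and no artery read.

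The 6 measured members of the GC-rich and noncanonical list were all at least 2-fold higher in vein, with a median of 3.58, the highest median of the 19 lists. None of the 6 had more than 5 artery reads, so they passed the threshold of 10 reads mainly through the vein library. For that reason no direction is read from them as a group. They took 2.55% of the remaining vein reads and 0.183% of the artery reads. miR-423-3p had 40 vein reads and 3 artery reads at 4.52 (2.87 to 6.86), and miR-423-5p from the other arm had 41 and 5 reads at 3.82 (2.48 to 5.51). miR-320, which is made without Drosha, had 15 vein reads and 1 artery read at 4.69 (1.99 to 10.08), the highest ratio of all rows. miR-484, also made without Drosha, had 11 and 2 reads at 3.24 (1.05 to 6.46). miR-339 had 26.5 and 4.5 reads at 3.34 (1.82 to 4.95), and miR-425-5p, the neighbour of miR-191, had 9 and 2 reads at 2.95 (0.68 to 6.20).

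**Figure D3:**
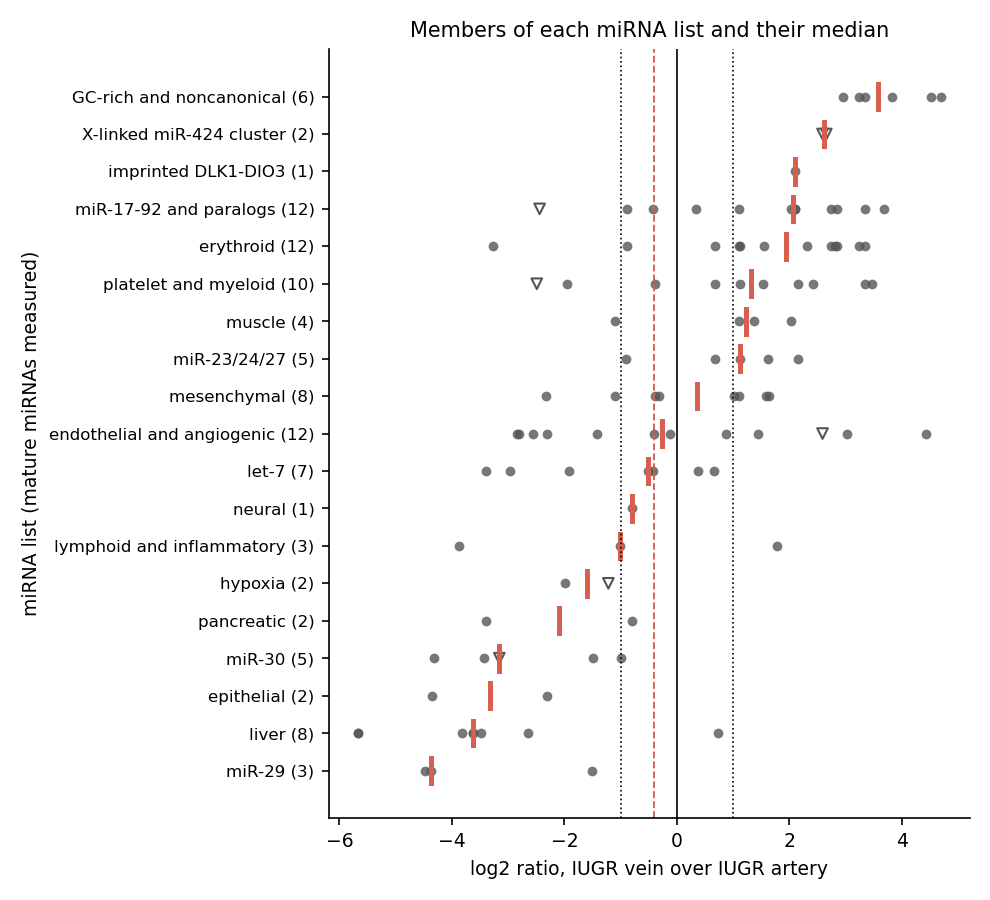
log2 ratio of IUGR vein over IUGR artery for each measured member of 19 miRNA lists (points, open triangles for bounds at 3 counts), with the list median as a red bar and the median of all 115 mature miRNAs as a dashed line. Lists share members, such as miR-92a. The liver, miR-29 and miR-30 lists lie to the left, the erythroid and GC-rich lists to the right, and the endothelial and let-7 lists spread over both sides.

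Muscle and mesenchymal miRNAs were mixed. miR-143-3p, of smooth muscle and fibroblasts, was among the 5 most abundant miRNAs of the vein library, with 290 vein reads and 232 artery reads at 1.10 (0.85 to 1.36). Its cluster partner miR-145-5p had 12 and 44 reads at -1.09 (-2.15 to -0.15), so the pair stood past 2-fold on opposite sides and their intervals do not overlap. Of striated muscle, miR-133a-3p had 14.7 and 6.17 reads at 2.03 (0.66 to 3.76), and miR-1 had 6 and 4 reads at 1.37 (-0.71 to 3.64). The muscle list had 3 of 4 members higher in vein and 1 in artery, with a median of 1.24 that became 0.96 with TMM scaling and 0.01 with a threshold of 30 reads, under 2-fold in either case. The mesenchymal list had 4 of 8 higher in vein and 2 in artery, with a median of 0.35. Over all 115 mature miRNAs the shares were 36.5% and 40.9%, so no direction is read from lists as small as these. Among mesenchymal members, miR-214 had 26 and 15 reads at 1.58 (0.60 to 2.60), and its genomic neighbour miR-199a-5p was higher in artery.

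Epithelial and pancreatic miRNAs were scarce. miR-200a-3p, miR-200b-3p and miR-216 passed the threshold of 10 reads through the artery library alone, so no direction is read from them as a group. miR-200a-3p, which represses ZEB1 and ZEB2, had 1 vein read and 35 artery reads at -4.35 (-9.69 to -1.77), and miR-200b-3p had 2 and 17 reads at -2.31 (-5.46 to -0.23). miR-216, of the exocrine pancreas, had 1 and 18 reads at -3.39 (-8.77 to -0.73). miR-375, of islets and gut, had 3 and 9 reads and lay within 2-fold at -0.80 (-3.32 to 1.20). Of other defining markers, miR-200c, miR-141 and miR-206 had no row, and the neuronal miR-9 and miR-124 were at 1 read or less in each library.

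miR-210, the miRNA most strongly induced by hypoxia, was higher in artery. The main row of the 3p arm had 5 vein reads and 34 artery reads at -1.98 (-3.70 to -0.62), and the 5p arm had none and 12 reads, at least 2.33-fold higher in artery. Each passed the threshold of 10 reads mainly through the artery library. In normal piglets the main row had 8 vein reads and 9 artery reads at -2.42, so the direction was the same there. The imprinted DLK1-DIO3 locus was represented by miR-127 alone, with 10 and 4 reads at 2.10 (0.31 to 4.23). In the X-linked miR-424 cluster, both measured members were higher in vein, and miR-450b-5p had 11 vein reads and no artery read, at least 6.30-fold higher in vein. Both passed the threshold of 10 reads through the vein library alone and both ratios are bounds, so no direction is read from them as a group.

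Outside the lists, miR-26a, found in most tissues, was the row with the most artery reads after those of miR-122, miR-451 and miR-30e-5p, with 48 and 541 reads at -2.71 (-3.17 to -2.29). miR-22-3p had 54 and 474 reads at -2.35 (-2.79 to -1.94). miR-33a, which lies in the gene of the sterol regulator SREBF2 and represses the cholesterol exporter ABCA1, had 1 and 30 reads at -4.13 (-9.48 to -1.54). The single neural member, miR-128, lay within 2-fold at -0.80.

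Grouped by seed, the 117 sequences had 77 seeds, and 21 seeds were shared by at least 2 sequences, 61 in all. All sequences of a seed were at least 2-fold higher in vein for 2 seeds and in artery for 4. Those of miR-484, miR-339 and miR-210, and those of miR-192 with miR-215, are forms of 1 sequence each that differ at their ends, so miR-29 and miR-221 with miR-222 were the families in which separate miRNAs lay past 2-fold together. The miR-30 seed missed this by miR-30b-5p. For 3 seeds the members stood past 2-fold on both sides, those of miR-17 with miR-20b, of miR-15 with miR-16c, and of miR-99a with miR-100. In the last, the row named miR-100 differs from that of miR-99a in length alone, so separate miRNAs are not shown. Summed over its rows, the miR-30 seed had 65.5 vein reads and 1074 artery reads, a log2 ratio of -3.25 (-3.62 to -2.88), and the let-7 seed 143.9 and 629.6 reads, at -1.35 (-1.62 to -1.08).

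**Figure D4:**
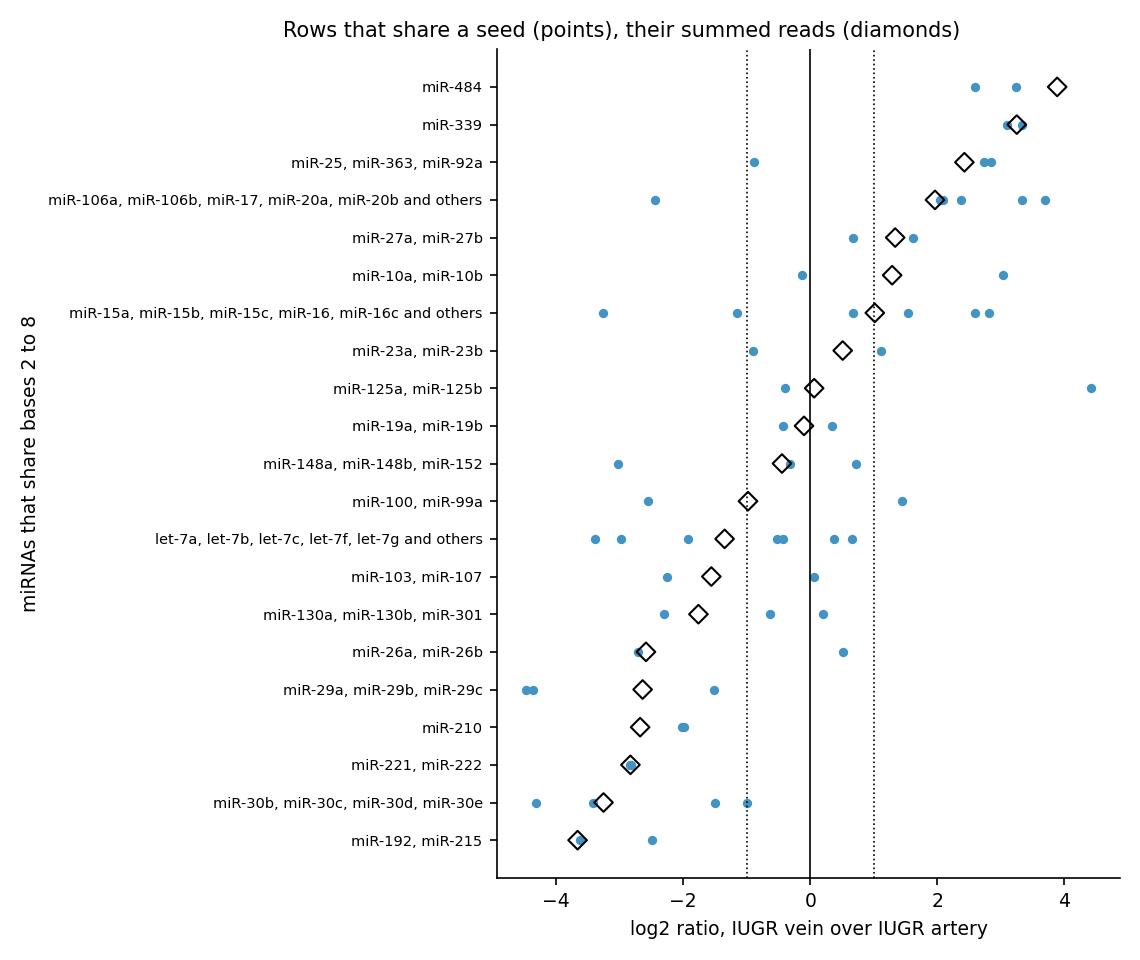
log2 ratio of IUGR vein over IUGR artery for rows that share bases 2 to 8 (points) and for their summed reads (diamonds), for the 21 seeds held by at least 2 sequences. Where a library held under 1 read the point is a bound at 3 counts, while the diamond uses the summed reads, so a diamond can lie outside its points, as for miR-484. The miR-29 and miR-30 points lie left of 0, and the miR-17 and miR-15 families spread over both sides.

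Some pairs of rows share their first bases and differ in length alone, and they were not always on the same side. The row named miR-100 in the tables carries a substitution note in its name, and its first 21 bases are those of the row named miR-99a, with 2 more bases after them.
miR-99a: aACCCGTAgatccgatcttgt
miR-100: aACCCGTAgatccgatcttgtgt
miR-99a had 74.5 vein reads and 47 artery reads at 1.45 (0.91 to 2.01), while the row named miR-100 had 30.5 and 309 at -2.56 (-3.12 to -2.0). The substitution note marks a base where T stands in place of A, and the miR-99a row has the same T. The row named miR-100 thus holds the bases of the miR-99a row with a longer 3′ end. Whether any of its reads come from miR-100 cannot be read from these bases.

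The rows of miR-103 and miR-107, miRNAs that act in insulin signalling, have the same difficulty, since the 21 bases of the miR-107 row are the first 21 of the 23 bases of miR-103.
miR-103: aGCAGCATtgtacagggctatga
miR-107: aGCAGCATtgtacagggctat
The shorter row had 7.33 vein reads and 60.3 artery reads at -2.26, and the longer had 6.83 and 11.3 at 0.05. Of 6 such pairs of a shorter and a longer form, the longer form had the lower ratio in 2. In the pair of miR-192 with miR-215 and in that of the miR-484 rows, the ratio of the longer form is a bound. The order in those pairs, and so this count, is not settled. In addition 3 rows of 18 bases ending in CCA, named miR-2478, miR-1260 and miR-1260a, had under 1 read in vein and between 11 and 25.5 in artery.

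Neighbours in the genome were compared for the side on which they lay. RefSeq genes of the Sscrofa 11.1 assembly, used only for names and neighbours because the files use an older build, matched 83 of 107 mature names and gave 20 groups of miRNA genes within 10000 bases of each other. Every measured member was at least 2-fold higher in vein in 2 of these groups, miR-451 with miR-144 and miR-425 with miR-191. In 8 groups every measured member was at least 2-fold higher in artery, and in 3 groups members were past 2-fold on both sides. The other 7 groups held at least 1 member within 2-fold. Over all 115 mature miRNAs, 36.5% were at least 2-fold higher in vein and 40.9% in artery. Whether neighbours shared a side more often than these shares would give was not tested. The 8 were miR-192 with miR-194a, miR-221 with miR-222, miR-30c with miR-30e, miR-29b with miR-29a, miR-29b with miR-29c, let-7a with miR-100, let-7a with let-7f, and miR-98 with let-7f. miR-29b, let-7a and let-7f have 2 genomic copies each, so they count in more than 1 group and the groups are not independent. The group of let-7a with miR-100 rests on the row that holds the bases of miR-99a, so its place among the 8 is uncertain. The 3 were miR-143 with miR-145, miR-214 with miR-199a, and the X-linked paralog of the 17-92 cluster.

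The ratios were also set beside base composition. Of 11 sequences with at least 60% G and C, 9 were at least 2-fold higher in vein and 2 in artery, with a median of 2.90. Of 49 sequences from 40 to 50%, 12 and 22 were, with a median of -0.88. Among the 9, only miR-486 had at least 10 artery reads, and miR-484 and miR-339 count with 2 end forms each. The others passed the threshold mainly through the vein library, so no relation is read from this count. Across the 117 sequences, which share the same pair of libraries and are not independent, the ratio and the GC share had Pearson's r of 0.37 and Spearman's rho of 0.35. Over the 53 sequences with at least 10 reads in each library these were 0.21 and 0.14. The mean GC share of all remaining reads was 43.16% in vein and 43.21% in artery, and without miR-451 and miR-122 it was 47.1% and 43.2%. Reads beginning with T made up 40.2% in vein and 63.7% in artery with all miRNAs included. These shares include miR-451, which begins with A and had a level of 4329 in vein and 867 in artery. The T shares without miR-451 were not computed, so no difference in first base apart from it is read. The part of base composition in the ratios was not tested.

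The same vessels in normal littermates are the most similar comparison, and it shares no library with the one above. There 156 rows passed the same filter, 16 (10.3%) were at least 2-fold higher in vein and 45 (28.8%) in artery, over 35300 remaining reads in vein and 7419 in artery. Of the 124 rows, 102 could be set beside normal piglets, and 22 had under 10 reads there. Of these 22 rows, 20 were at least 2-fold higher in IUGR artery and none in IUGR vein, so the rows that can be compared lean to the vein side, with a median log2 ratio in IUGR of 0.68 against -0.39 over all 124. Over these 102 rows the absolute log2 ratio had a median of 2.13 in IUGR and 0.84 in normal piglets, with SDs of the ratio of 2.49 and 1.33 across rows. The ratios had the same sign in 71 rows (69.6%), and Pearson's r across rows was 0.68 and Spearman's rho 0.64, as a description of these libraries.

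Liver miRNAs were higher in artery in both conditions. miR-122 had 45 vein reads and 133 artery reads in normal piglets, a log2 ratio of -3.81 beside -3.48 in IUGR, and miR-192 had 11 and 22 reads, at -3.25 beside -3.62. The liver list had medians of -3.25 and -3.62. At the level of shares, however, liver miRNAs were 1.90% and 3.92% of normal vein and artery and 4.76% and 35.2% of IUGR vein and artery. Of the 102 rows, 30 were at least 2-fold higher in artery in IUGR and 37 in normal piglets, and 19 were so in both. In vein, 48 were at least 2-fold higher in IUGR and 8 in normal piglets, and 6 were so in both.

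Several abundant erythroid miRNAs differed between vessels in IUGR far more than in normal piglets. miR-451 had 12651 vein reads and 2405 artery reads in normal piglets, a log2 ratio of 0.14 beside 2.32. miR-486 stood at 0.73 beside 3.24 and miR-92a at 0.38 beside 2.84. miR-144 went against this, at -1.77 in normal piglets and 1.12 in IUGR. miR-16 lay within 2-fold in both, at 0.22 and 0.67. The erythroid list had medians of 0.27 over 16 members in normal piglets and 1.93 over 12 members in IUGR. The GC-rich list had medians of 0.63 over 10 members and 3.58 over 6, with 1 of the 10 at least 2-fold higher in vein in normal piglets. Its 6 members in IUGR passed the threshold mainly through the vein library, so no difference between conditions is read from it. With 1 library in each of the 4 groups these differences between conditions have no test, and the low share of erythroid miRNAs in the IUGR artery library moves with all of them.

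**Figure D5:**
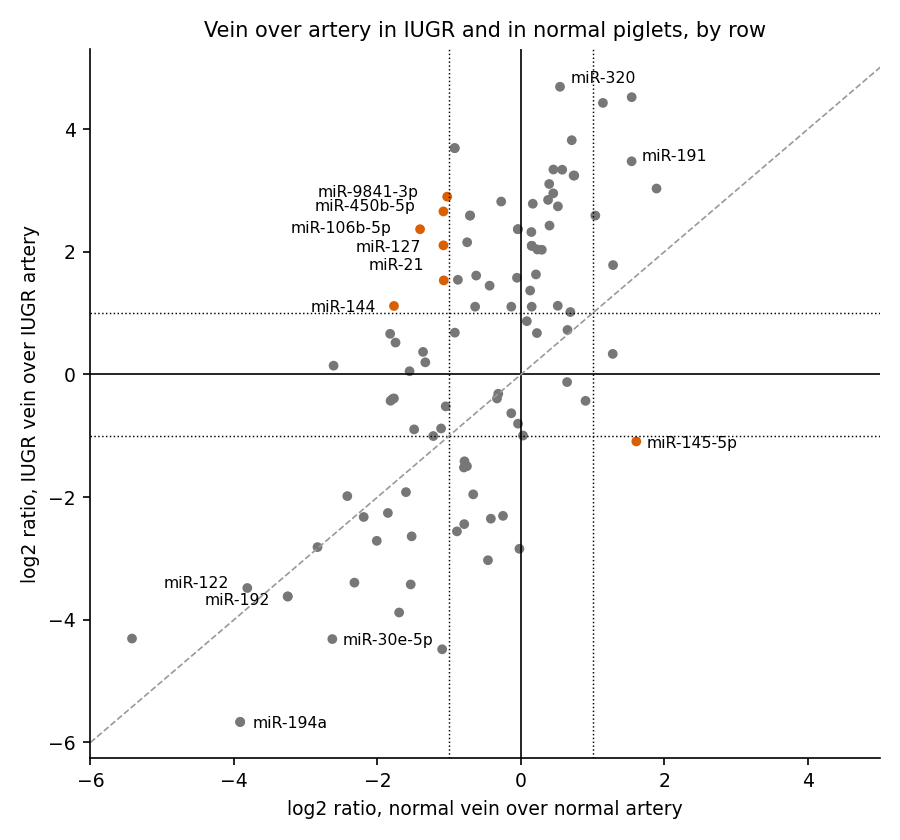
log2 ratio of vein over artery in normal piglets (x axis) and in IUGR piglets (y axis) for the 102 rows measured in both, with 1 pooled library per vessel and condition. The dashed line is equality, dotted lines mark 2-fold and orange points are at least 2-fold apart in opposite directions. miR-122 and miR-192 lie near the dashed line at the lower left, miR-194a lies below it, and miR-451, miR-486 and miR-92a lie above it.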

How the data were processed

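Small RNA of plasma exosomes was sequenced by the submitters, with no aligner or counting method given in the sources used here. The submitters' processing notes name the build Sscrofa 10.2. The raw columns hold expected counts, per the file headers: the authors deposited reads that are split into fractions between rows. The normalized columns hold a signal in which the authors had multiplied raw reads by 1 factor per library, 4.70 for IUGR vein and 3.18 for IUGR artery. It served as an alternative scaling. The authors' fold and p columns were not used.

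Rows named PC or miR-3168 were removed, reads were scaled to the remainder, and rows with 10 reads over both libraries were kept. Intervals came from scipy 1.17.1, with Python 3.11.15 and pandas 2.3.3, and were checked on simulated reads. edgeR 4.0.16 (R 4.3.3) gave TMM factors alone. Sequences came from the deposited tables, and end forms were rows sharing 14 bases. Named miRNAs were the 10 highest and 10 lowest ratios with at least 30 reads, the 5 most abundant of each library, list members at least 2-fold apart and hairpins with both arms measured. Rows named outside it were chosen after their values were seen. The members and the 19 lists were chosen with earlier results of these data known. Alternatives were 5 other scalings, other read thresholds, 0.5 reads added, and rows summed by sequence or name.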

Additional observations from a re-analysis of the deposited data

Results flagged for a closer look

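For 7 of the 102 rows measured in both conditions, the vessels differed by at least 2-fold in opposite directions in IUGR and in normal piglets. These differences were not tested, since each library stands alone. miR-145-5p was higher in artery in IUGR and higher in vein in normal piglets, with 58 vein reads and 4 artery reads there, and its log2 ratio in IUGR minus that in normal piglets was -2.70. The other 6 were higher in vein in IUGR and in artery in normal piglets. The difference of the log2 ratios was 2.89 for miR-144, 2.61 for miR-21, 3.18 for miR-127 and 3.77 for the 20-base row of miR-106b-5p. miR-450b-5p, with 11 vein reads, and the pig miRNA miR-9841-3p, with 13, had no read in IUGR artery, so their differences of 3.74 and 3.93 rest on 3 counts there and are lower bounds. miR-127 and miR-450b-5p rest on 9 vein reads and 4 artery reads each in normal piglets, while miR-144 had 374 and 268 and miR-21 had 413 and 183.

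The rows left out, which the comparison does not use, held 55.8% of the IUGR vein reads and 13.2% of those of normal vein. In IUGR artery they held 38.8% and in normal artery 46.0%. Whether this differed between vessels or conditions beyond these libraries was not tested.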

How the results depend on the processing

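No paired analysis was possible because each vessel has 1 library in this comparison and no result comes from a test. Other scalings moved all log2 ratios by one amount, -0.28 with TMM, -0.47 with all rows kept, 0.34 with totals that leave out miR-451 and miR-122, -0.22 with the authors' normalized columns and 0.04 with median ratio scaling. None of the 81 named miRNAs changed sign in a setting that gave it a value (60 had one with at least 30 reads and 40 with at least 10 in each library), and with all rows kept 8 of the 78 past 2-fold no longer were. The counts of rows higher in vein and in artery were 42 and 64 with all rows kept and 53 and 44 without miR-451 and miR-122. They were 24 and 36 with at least 30 reads, 64 and 52 with at least 5, and 68 and 52 with no threshold. With at least 10 reads in each library, a setting chosen after seeing the data, 20 were higher in vein and 18 in artery. Of the lists, 8 had a median at least 2-fold higher in vein and 7 in artery, which became 5 in vein with all rows kept, 5 in vein with at least 30 reads, 4 in artery with no threshold, and 4 in vein with at least 10 reads in each library. These counts include the epithelial, GC-rich and X-linked lists, whose members passed the threshold mainly through 1 library. In the miR-29 list, miR-29b and miR-29c passed it in the same way. The counts also include the pancreatic list, with miR-216 alone past 2-fold, the DLK1-DIO3 list of 1 miRNA and the hypoxia list of 1 hairpin. Medians of the endothelial (-1.86 to 0.12) and mesenchymal (-0.32 to 0.70) lists changed sign over the settings. The muscle median ran from 0.01 to 1.58 and those of the platelet and myeloid list and of the miR-23/24/27 list fell to 0.86 and 0.65 with all rows kept. The medians of miR-29 (-4.84 to -1.52), miR-30 (-3.63 to -1.50), lymphoid (-2.44 to -0.22), epithelial (-4.35 to -0.97) and pancreatic (-2.56 to -0.80) miRNAs kept their sign. Depth limits what can be seen: 1 read was worth a level of 1.39 in vein and 0.811 in artery.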
